A study of Mus musculus with 34 samples.

Results

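The leptin receptor gene Lepr and 9 genes of the JAK-STAT route below it (Jak1, Jak2, Stat3, Stat5a, Stat5b, Socs2, Socs3, Cish and Ptpn1) were followed in mouse cumulus cells (CCs) under injected leptin and diet-induced obesity. The 10 genes were taken by their symbols, each matching 1 of the 25965 entries of a table of reads counted per gene. The table covers 34 RNA-seq libraries of C57BL/6J females that were 8 weeks old at the start. In the leptin experiment, mice had intraperitoneal injections of saline (the group 16 C, n = 3) or of leptin, 100 μg a day in divided doses (the group 16 L, n = 5), over 16 days. In the diet experiment, mice ate a control diet (CD, 11% of energy from fat) or a high-fat diet (HFD, 58%) for 4 weeks (CD n = 5, HFD n = 5) or 16 weeks (CD n = 6, HFD n = 7), and 3 more mice ate HFD for 16 weeks with little gain in weight (low weight gainers). All mice were superovulated, and each library was made from about 50 CCs of 1 cumulus-oocyte complex with the Smart-seq2 method, which primes on the poly-A tail and amplifies the cDNA by PCR. CCs are the granulosa-derived cells around the oocyte.

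Leptin is a hormone of fat tissue. It binds the long form of its receptor, the attached kinase JAK2 phosphorylates the receptor and itself, and STAT3 and the STAT5 proteins dock, become phosphorylated and move to the nucleus. STAT proteins raise transcription of SOCS3, CISH and SOCS2, which then damp signalling at the receptor, and PTP1B, encoded by Ptpn1, removes phosphate from JAK2. The same kinases and STATs serve many other receptors. In granulosa cells the prolactin receptor is a known user of JAK2 and STAT5. These are changes in protein activity, whereas the values here are RNA levels.

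STAT dimers bind a palindrome spelled TTCNNNGAA, which reads the same on both strands. It was searched in RefSeq promoter windows (GRCm38.p6, 250 bases before to 50 after each gene's start), where 2726 of 32851 windows (8.30%) held it and 150 (0.457%) held at least 2 copies. Of the 12 windows of 9 of the genes, 2 held a match, those of Cish and Socs3, and no window of Socs2 was searched. These stretches are shown, with the palindrome in capitals, because they are the ones that held a match. The Cish stretch (chr9:107296654-107296683, plus strand) holds 2 copies that start at positions 1 and 12 counted from the RefSeq start, and GENCODE M21 places it in the 5′ untranslated part of the first exon of a longer transcript. The Socs3 stretch (chr11:117969502-117969530, minus strand, written 5′ to 3′ on that strand) holds 1 copy that starts at position -154, within an intron of a longer noncoding transcript.
Cish: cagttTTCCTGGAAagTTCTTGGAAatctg
Socs3: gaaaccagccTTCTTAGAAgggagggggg
A match describes the letters of a window, and binding was not measured.

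Total counts ranged from 1104611 to 13207018 per library (median 4035575.5). The granulosa and cumulus markers summed to between 688 and 2112 RPM, which is reads scaled to the library total, in all libraries, with 10 of 10 in the table. The library 16 L replicate 18 stood apart, with a median Spearman correlation of 0.474 with the other 16 L libraries, 10.3 RPM of 7 cumulus expansion genes (909 to 1439 in 16 C), 29895 RPM of 7 oviduct epithelium genes (19.6 to 70.7 in 16 C), 9805 RPM of red blood cell genes and 1312 RPM of 8 theca and stroma genes. The other 4 libraries of 16 L were each closest to a 4-week group in correlation. Their oviduct genes summed to 11.0 RPM in replicate 19 and to 389, 1454 and 2255 RPM in replicates 23, 20 and 21. Replicate 21 also had 2549 RPM of red blood cell genes and 58.8 RPM of theca and stroma genes (at most 19.3 and 2.35 in 16 C). Leaving out replicate 18 thus does not free 16 L of such genes. In the group 16-week CD, replicates 1 and 2 were closest to the 4-week HFD libraries. Their counts were also spread over more genes, with 14.9% and 15.5% on the 50 most abundant genes against 24.3% to 30.4% in the other 4. This share, called the top-50 share below, was 30.7% to 34.6% in 16 C and 13.4% to 19.8% in 16 L, so scaling weighs on that comparison. Levels are CPM, the counts scaled by TMM over all libraries to the same base. Many results of the 10 genes that rest on these 3 libraries are given with and without them, but not all. Results of other genes of the route are given with them only.

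Per length, the kinase Jak1 and the inhibitor Socs2 had the highest levels of the 10 genes, with medians over the 34 libraries of 33.9 and 33.9 CPM per kilobase of exon (SD 9.93 and 13.5). Stat5a followed at 27.6 CPM per kilobase, with the widest spread, from 8.19 to 105. Stat3 had a median of 16.6, Jak2 11.5, Stat5b 10.1 and Ptpn1 6.06 CPM per kilobase. Lepr was low, at 2.32 CPM per kilobase (range 0.350 to 5.69), and Cish (1.06) and Socs3 (0.938) were lower still. Lengths are of all exons merged, and with the longest transcript instead Socs2 moves to 76.1, Jak1 to 50.0 and Stat3 to 26.1 CPM per kilobase. The receptor was thus represented by 15 to 333 reads in a library, while Jak1 had 227 to 3361.

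**Figure D1:**
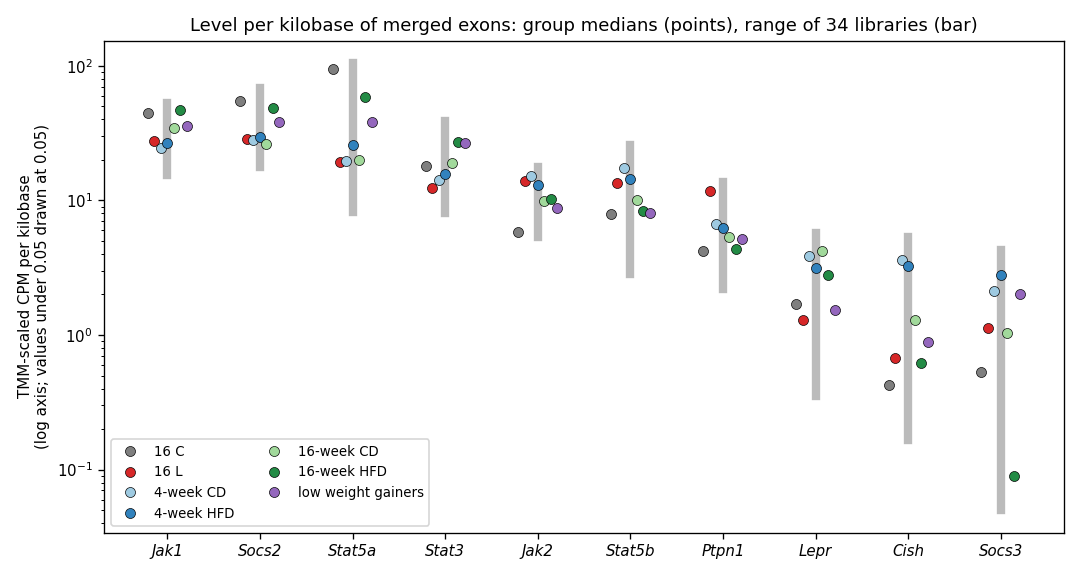
Level of each of the 10 genes in CPM per kilobase of merged exon on a log axis. Points are the medians of the 7 groups and grey bars the range of the 34 libraries, with values under 0.05 drawn at 0.05. Over the 34 libraries Jak1 and Socs2 lead with medians of 33.9, and Lepr (2.32), Cish (1.06) and Socs3 (0.938) are lowest.

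All 10 genes differed somewhere among the 7 groups (edgeR's quasi-likelihood test on all 34 libraries, adjusted p from 2.01e-05 for Cish to 0.0297 for Jak2). Of all genes tested, 67.8% did so as well. All 10 were also called without the 3 libraries that stood apart, where 9648 of the 12988 genes tested were called. With scaling by total counts alone 7 were called (74.9% of all genes), and Jak1, Stat3 and Socs2 were not. The leptin and diet experiments cannot be told apart from a batch here. Ordered by group medians, 58 of the 60 pairs of neighbouring groups overlapped in their libraries. The exceptions were Jak2, where every low weight gainer (at least 40.8 CPM) lay above every 16 C library (at most 35.4 CPM), and Stat5a, where every low weight gainer (at least 241 CPM) lay above every 4-week HFD library (at most 209 CPM). The pairs were picked by these same medians, and the share over all genes was not computed. The Jak2 pair also crosses the leptin and diet experiments. The widest ratio between the highest and the lowest group median was that of Socs3 (31.2, 4-week HFD over 16-week HFD), followed by Cish (8.46, 4-week CD over 16 C) and Stat5a (4.88, 16 C over 16 L). For Lepr it was 3.29 (16-week CD over 16 L), and for the other 6 genes between 1.92 and 2.78. The Socs3 ratio rests on a median of 0.259 CPM in 16-week HFD, where 3 of the 7 libraries had no read, so it lies near the counting floor.

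**Figure D2:**
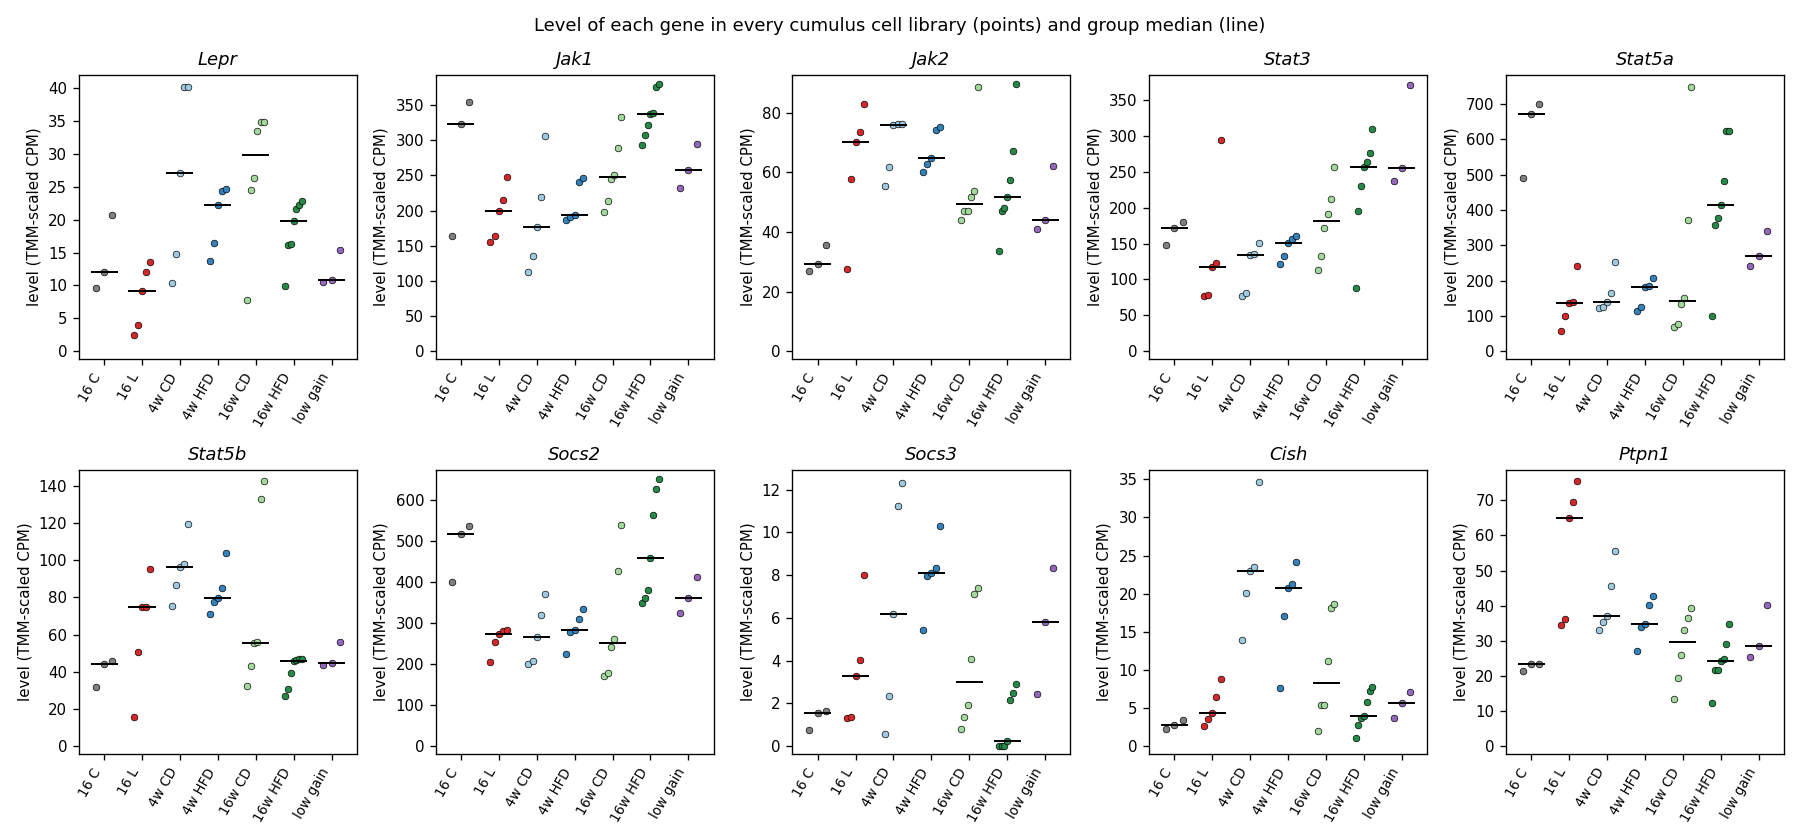
Level of each gene in TMM-scaled CPM in every library, one panel per gene and one column per group, with the group median as a line. Stat5a lies between 490.2 and 699 CPM in 16 C and at most 241 CPM in 16 L, and 3 of the 7 16-week HFD libraries have no Socs3 read.

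The 5 comparisons of 2 groups called few of these genes at an adjusted p of 0.05. In 16 L against 16 C, 1 of the 9 genes tested was called, Stat5a, which was lower (8.56% of all genes were called, 4.50% lower), and 4 had an unadjusted p under 0.05 (32.4%). For 3 of the 9, Stat5a, Socs2 and Ptpn1, the libraries of 16 L and 16 C did not overlap, against 23.2% of all genes tested. The median log2 fold change of the 9 was -0.23, beside 0.27 for all genes. In 4-week HFD against 4-week CD, 0 of the 10 genes were called by edgeR (4.26% of all genes) or by DESeq2 (11.0%), 0 had an unadjusted p under 0.05 (24.3%), and in 0 of them did the groups separate (6.59% of all genes). In 16-week HFD against 16-week CD, 0 of 9 were called by edgeR (0.0276%) or by DESeq2 (9.72%), 4 had an unadjusted p under 0.05 (25.3% of all genes), and 0 separated (1.00%). The low weight gainers had 1 of 10 called against 16-week HFD, Socs3, which was higher (20.7% of all genes, 10.8% higher). In that comparison 2 had an unadjusted p under 0.05 (4083 of the 11258 genes tested), and 0 of the 10 separated (20.5% of all genes). Against 16-week CD 0 of 10 were called by edgeR (0.00861%) or DESeq2 (2.15%), 1 had an unadjusted p under 0.05 (11.2%), and 0 separated (7.56%). The diet effect did not pass the test of a difference between 16 and 4 weeks for any of the 10 in edgeR (3.66% of all genes) or DESeq2 (9.52%), and 0 had an unadjusted p under 0.05 (23.4%). The comparisons of the low weight gainers share their libraries, and those at 16 weeks share the CD and HFD libraries, so their fold changes are not independent of each other.

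**Figure D3:**
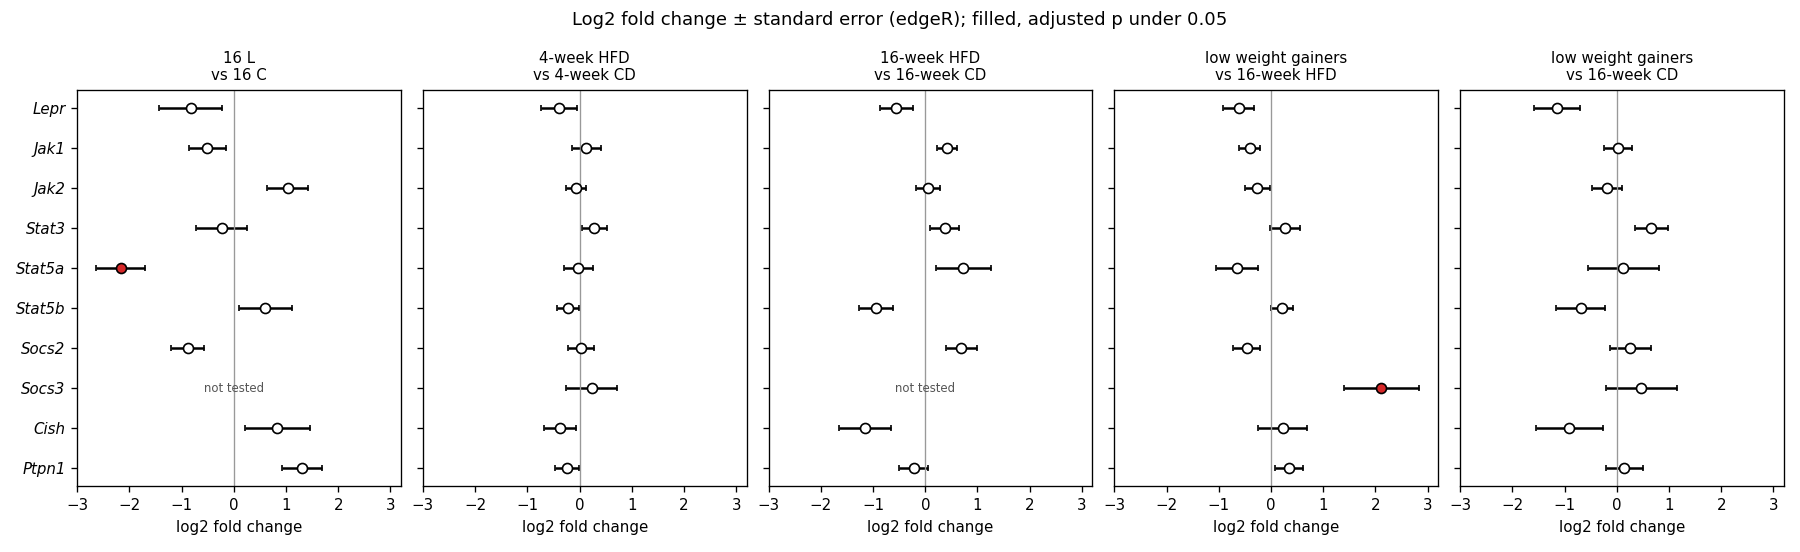
Fitted log2 fold change of each gene in the 5 comparisons of 2 groups, with bars of 1 standard error and called genes filled in red. Socs3 was not tested where its counts were too low. Stat5a in 16 L (-2.17) and Socs3 in the low weight gainers against 16-week HFD (2.11) are the called values.

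Lepr (chr4:101717404-101815352, plus strand) encodes the leptin receptor, and the table does not separate its long signalling form from its short forms. In 16 C it had 9.63, 12.1 and 20.7 CPM in replicates 3, 1 and 2. In 16 L it had 2.47, 3.95, 9.08, 12.1 and 13.6 CPM in replicates 18, 19, 20, 23 and 21. The lower 3 of the leptin libraries lay under all 3 saline libraries, and the other 2 lay among them. The log2 fold change was -0.83 (SE 0.612, adjusted p = 0.367), -0.71 without replicate 18, and 0.10 with scaling by total counts alone, where the median of all genes moved from 0.27 to 1.08.

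Under diet, Lepr had 10.4, 14.7, 27.0, 40.1 and 40.1 CPM in 4-week CD and 13.8, 16.4, 22.2, 24.4 and 24.7 CPM in 4-week HFD. The HFD libraries lay inside the range of the CD libraries (log2 fold change -0.39, SE 0.345, adjusted p = 0.495). In 16-week CD it ranged from 7.78 to 34.8 CPM (median 29.9, n = 6), with replicate 5 the lowest and the next at 24.5. In 16-week HFD it ranged from 9.94 to 22.8 CPM (median 19.8, n = 7), below all but 1 of the CD libraries (log2 fold change -0.55, SE 0.312, adjusted p = 0.264). The low weight gainers had 10.6, 10.9 and 15.3 CPM, the lowest median of the diet groups. Their log2 fold change was -0.62 against 16-week HFD (SE 0.292, adjusted p = 0.135) and -1.15 against 16-week CD (SE 0.442, adjusted p = 0.377; -0.90 without CD replicates 1 and 2). The fitted value was negative in the 5 comparisons, of which the 3 among 16-week groups share libraries, except in 16 L with total counts alone, and none was called with any library left out. In bulk libraries such as these, fewer cells with the transcript and less of it per cell cannot be told apart.

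Jak1 (chr4:101152367-101265282, minus strand) and Jak2 (chr19:29251828-29313080, plus strand) encode the kinases, JAK2 being the one bound to the leptin receptor and JAK1 serving mainly cytokine receptors of the interleukin-6 and interferon families. Jak2 had 27.0, 29.3 and 35.4 CPM in 16 C. In 16 L it had 27.4 CPM in replicate 18 and 57.9, 70.1, 73.5 and 83.0 CPM in the other 4, all of which lay above saline. The log2 fold change was 1.03 (SE 0.386, adjusted p = 0.107). It was called without replicate 18 (1.14, adjusted p = 0.00476, where 41.8% of all genes were called) and with total counts alone (1.89, 34.4% of all genes). In the diet groups Jak2 ranged from 55.3 to 76.3 CPM in 4-week CD, 60.1 to 75.2 in 4-week HFD, 44.2 to 88.5 in 16-week CD, 33.7 to 89.5 in 16-week HFD and 40.8 to 62.0 in the low weight gainers. These ranges overlapped, and the diet comparison with the value farthest from 0 was the low weight gainers against 16-week HFD (log2 fold change -0.26, adjusted p = 0.465).

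Jak1 ranged less between groups. It had 164, 324 and 354 CPM in 16 C and 155 to 248 in 16 L (log2 fold change -0.51, SE 0.349, adjusted p = 0.335; 0.30 with total counts alone). In 4-week CD it ranged from 112 to 306 CPM and in 4-week HFD from 186 to 246 CPM. In 16-week HFD it ranged from 294 to 379.6 CPM (median 337), above the median of 248 in 16-week CD (198 to 332), with a log2 fold change of 0.41 (SE 0.193, adjusted p = 0.194). Of the low weight gainers, at 233, 257 and 294 CPM, 2 lay below all 16-week HFD libraries (log2 fold change -0.41, SE 0.201, adjusted p = 0.148).

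Stat5a (chr11:100859351-100885169, plus strand) encodes 1 of the pair of closely related STAT5 proteins and was the gene with the largest fitted change. It had 490.2, 671 and 699 CPM in 16 C and 58.4, 101, 138, 141 and 241 CPM in 16 L, the highest of these in replicate 18. All 5 leptin libraries lay below all saline libraries. The mean was 620.3 ± 114 CPM (SD, n = 3) in 16 C and 136 ± 67.6 CPM (SD, n = 5) in 16 L, and the gene fell by 2.17 on the log2 scale (SE 0.466, edgeR adjusted p = 0.0295, a 4.49-fold lower level). Of the 8 fits that each left out 1 library, only those without 16 L replicate 18 or 16 L replicate 19 called it (adjusted p from 0.000371 to 0.124 over the 8). With total counts alone it was -1.43 and called (adjusted p = 0.0231, 34.4% of all genes). The top-50 share moved with this difference, from 30.7% to 34.6% in 16 C to 13.4% to 19.8% in 16 L, and its part in the result was not tested.

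The 16-week libraries spread widely in Stat5a. In 16-week CD it had 67.7, 78.0, 133, 152, 371 and 748 CPM in replicates 8, 5, 2, 1, 13 and 9. In 16-week HFD it had 100.4 CPM in replicate 6 and between 358 and 623 CPM in the other 6. The HFD range lay inside the CD range (log2 fold change 0.73, SE 0.525, adjusted p = 0.372). Without CD replicate 9 the log2 fold change was 1.42 and called (adjusted p = 0.0371, where 20.5% of all genes were called). At 4 weeks Stat5a lay between 123 and 252 CPM in CD and between 115 and 209 CPM in HFD (log2 fold change -0.02). In the low weight gainers it had 241, 271 and 340.4 CPM, below the median of 16-week HFD (414 CPM, log2 fold change -0.64, adjusted p = 0.263). Without HFD replicate 6 that value was -0.82 and called (adjusted p = 0.0232, 24.5% of all genes).

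Stat5b (chr11:100780731-100850724, minus strand), the neighbouring paralog, had 31.7, 44.1 and 45.8 CPM in 16 C. In 16 L it had 15.8 CPM in replicate 18 and 50.6, 74.8, 74.9 and 95.2 CPM in the other 4, all above saline (log2 fold change 0.60, SE 0.504, adjusted p = 0.425). Without replicate 18 it was 0.76 (SE 0.280, adjusted p = 0.0522). In 16-week CD it had 32.2, 42.9, 55.5, 55.9, 133 and 142 CPM, with the highest 2 values in replicates 2 and 1, and in 16-week HFD 27.1 to 47.1 CPM. The log2 fold change was -0.94 (SE 0.326, adjusted p = 0.0999) and moved to -0.14 without those 2 libraries. It was called with total counts alone (-1.43, 15.2% of all genes), with all 34 libraries in 1 fit (-0.92, 9.50%) and without CD replicate 9 (-1.10). At 4 weeks it ranged from 75.4 to 119.8 CPM in CD and 70.9 to 104 CPM in HFD.

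The ratio of Stat5a to Stat5b, each per kilobase, was computed after both genes' values had been seen and is given as a description. It was 11.4, 12.0 and 12.3 in 16 C. In 16 L it was 0.896, 1.05, 1.15 and 1.43, with 11.9 in replicate 18. The 4-week libraries lay between 0.900 and 2.03 in CD and between 0.943 and 1.91 in HFD. In 16-week CD the ratio ran from 0.779 to 18.1, with replicates 2 and 1 the lowest (0.779 and 0.830) and replicate 9 the highest, and the median of 1.16 became 3.19 without replicates 1 and 2. In 16-week HFD it ran from 1.97 in replicate 6 to 17.8 (median 7.94), and the low weight gainers had 3.34, 4.68 and 6.02. The paralogs are alike in sequence, so reads may have been divided between them in a way that depends on the counting. The saline libraries and most 16-week HFD libraries thus had several times more Stat5a than Stat5b per length, while the 4-week libraries had nearer equal amounts.

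**Figure D4:**
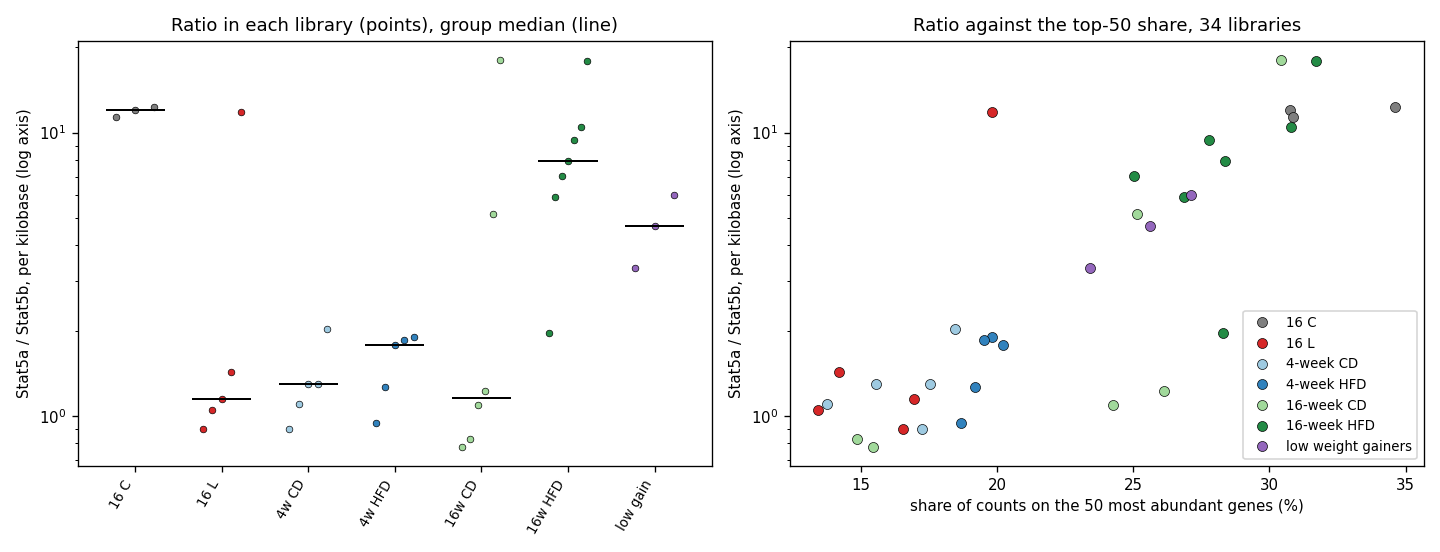
Ratio of Stat5a to Stat5b, both in CPM per kilobase, on a log axis, left for every library by group with the group median as a line, right against the top-50 share (percent) of the same libraries. The 3 libraries of 16 C lie between 11.4 and 12.3, and 4 of the 5 16 L libraries between 0.896 and 1.43.

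Stat3 (chr11:100885098-100939540, minus strand) encodes the STAT most closely tied to the long leptin receptor. Its entry shares 72 bases with that of Stat5a on the other strand, and the counting is not known to use strand, so a few reads may be uncertain. In 16 C it had 149, 171 and 179 CPM. In 16 L it had 77.0, 78.3, 118 and 123 CPM, all below saline, and 295 CPM in replicate 18, above it. The log2 fold change was -0.23 (SE 0.490, adjusted p = 0.769) and, without replicate 18, -0.83 and called (SE 0.244, adjusted p = 0.0215). With total counts alone it was 0.45 over all libraries. At 4 weeks Stat3 had 77.2 to 150.2 CPM in CD and 122 to 160.1 CPM in HFD (log2 fold change 0.29, adjusted p = 0.469). At 16 weeks it had 113 to 257 CPM in CD (median 181) and, in HFD, 88.1 CPM in replicate 6 and 196 to 309.5 CPM in the other 6 (log2 fold change 0.37, adjusted p = 0.387). Stat3 in the low weight gainers was 237, 255 and 370.4 CPM (log2 fold change 0.67 against 16-week CD, SE 0.313, adjusted p = 0.461).

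Socs2 (chr10:95385362-95417180, minus strand) encodes an inhibitor best known for growth hormone signalling through STAT5. It had 399.8, 518 and 537 CPM in 16 C and 206, 255, 273, 281 and 285 CPM in 16 L. All 5 leptin libraries lay below all saline libraries, replicate 18 included. The log2 fold change was -0.89 (SE 0.320, edgeR adjusted p = 0.0978), and it was called by DESeq2 (adjusted p = 0.0178, 22.4% of all genes), with all 34 libraries in 1 fit (33.1%) and without replicate 18 (-1.01, adjusted p = 0.00937). With total counts alone it was -0.09. At 4 weeks it had 201 to 371 CPM in CD and 224 to 334 CPM in HFD. In 16-week CD it had 170.1 and 179 CPM in replicates 2 and 1 and up to 539.6 CPM in replicate 9 (median 252), and in 16-week HFD 349 to 651 CPM (median 459). That log2 fold change was 0.69 (SE 0.301, adjusted p = 0.162), 0.45 without CD replicates 1 and 2, and 0.94 and called without CD replicate 9 (adjusted p = 0.0285). Socs2 in the low weight gainers was 326, 361 and 412 CPM (log2 fold change against 16-week HFD -0.46, adjusted p = 0.210).

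Socs3 (chr11:117966079-117970047, minus strand) encodes the feedback inhibitor that binds the leptin receptor itself. It had few reads, from 0 to 84 in a library, and a count of 0 allows up to 3 reads, which in these libraries is 0.227 to 2.72 RPM. Such limits cover counting error only. In 16 C it had 1, 4 and 14 reads (0.754, 1.54 and 1.66 CPM) and in 16 L 2, 3, 12, 20 and 79 reads (1.36, 1.30, 4.03, 3.29 and 8.01 CPM). Its counts were too low for the fit in this comparison. On the log2(RPM + 1) scale the group means differed by 1.29 (p = 0.0357 in a two-sided exact permutation test, the smallest the design allows, or 0.0443 adjusted over the 2 such tests). With TMM scaling it was 0.82 (exact p = 0.214), so the call rests on scaling by total counts. The macrophage and neutrophil genes, 9 of 10 in the table, summed to 88.3 to 1572 RPM in 16 L and 81.7 to 483 RPM in 16 C. Their part in the Socs3 values was not tested.

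In the 4-week groups Socs3 had 0.590, 2.35, 6.17, 11.2 and 12.3 CPM in CD and 5.42 to 10.3 CPM in HFD (log2 fold change 0.23, adjusted p = 0.794). At 16 weeks it had 0.825, 1.35, 1.94, 4.07, 7.13 and 7.40 CPM in CD, the highest 2 again replicates 2 and 1. In 16-week HFD replicates 10, 12 and 14 had 0 reads, replicate 16 had 1, and replicates 15, 6 and 11 had 8, 12 and 6 reads (2.15, 2.50 and 2.92 CPM). Summed over libraries these are 116 reads in CD and 27 in HFD. The gene failed the filter, and on the log2(RPM + 1) scale HFD minus CD was -1.33 (p = 0.0443 in a two-sided exact permutation test, unchanged by adjustment over 2 tests, smallest possible 0.00117). It ranged from -1.60 to -1.05 with 1 library left out, and did not pass without CD replicate 1, 2 or 5 or without HFD replicate 10, 12, 14 or 16 (exact permutation p from 0.0714 to 0.0960). Without CD replicates 1 and 2 together it was -0.66 (exact permutation p = 0.230).

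The low weight gainers had 2.42, 5.79 and 8.32 CPM of Socs3 (8, 35 and 32 reads) after the same 16 weeks of HFD. Replicates 21 and 23 lay above all 7 of the 16-week HFD libraries and replicate 22 among them. Socs3 rose by 2.11 on the log2 scale (SE 0.715, edgeR adjusted p = 0.0444, 4.32-fold), from a mean of 1.12 ± 1.34 CPM (SD, n = 7) to 5.51 ± 2.96 CPM (SD, n = 3). The DESeq2 adjusted p was 0.0324 (25.3% of all genes called). With all 34 libraries in 1 fit the change was 2.16 and not called (adjusted p = 0.105, where 3.68% of all genes were called), and with 1 library left out it was called in 2 of the 9 fits that could test it (adjusted p from 0.0254 to 0.250). Without HFD replicate 11 the gene no longer passed the filter. Against 16-week CD the log2 fold change was 0.47 (SE 0.676, adjusted p = 0.835), and 1.35 without CD replicates 1 and 2. The macrophage and neutrophil genes summed to 281 to 300.5 RPM in the low weight gainers and 99.4 to 588 RPM (median 258) in 16-week HFD. Their part in these Socs3 values was not tested.

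Cish (chr9:107296026-107302784, plus strand) encodes the feedback inhibitor induced by STAT5, and its promoter window held the paired palindrome shown above. A predicted gene on the other strand, Gm17041, shares 1459 bases with its entry, so its reads are uncertain without strand. It had 2.26, 2.72 and 3.47 CPM in 16 C and 2.64, 3.62, 4.36, 6.49 and 8.85 CPM in 16 L (log2 fold change 0.84, SE 0.624, adjusted p = 0.373). Most leptin libraries lay above saline, but the lowest lay among them. The 4-week groups were the highest, with 13.9 to 34.6 CPM in CD and 7.61 to 24.2 CPM in HFD (log2 fold change -0.38, adjusted p = 0.454). In 16-week CD it ran from 1.93 CPM in replicate 9 to 18.1 and 18.6 CPM in replicates 2 and 1 (median 8.28), and in 16-week HFD from 1.07 to 7.80 CPM (median 3.97). The log2 fold change was -1.15 (SE 0.506, adjusted p = 0.167), -0.32 without CD replicates 1 and 2, and -1.38 and called without replicate 9 (adjusted p = 0.0413). Cish in the low weight gainers was 3.63, 5.72 and 7.11 CPM (log2 fold change 0.22 against 16-week HFD, adjusted p = 0.770).

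Among Lepr, Socs2, Socs3 and Cish, 6 pairs were correlated over the 34 libraries after the group means of log2(CPM + 1) were removed, with permutation within groups. Socs2 and Socs3 ran opposite to each other (Pearson's r = -0.70, Spearman's rho = -0.71, permutation p = 0.00013 and 0.00014, adjusted 0.00078 and 0.00084). When the 2 libraries with the most extreme Socs2 were dropped, r was -0.67. The pooled value without the 3 libraries that stood apart is not given. Both genes are set against the top-50 share below. The other 5 pairs had adjusted p of at least 0.167, Lepr included (r = 0.15 with Socs2, -0.34 with Socs3 and 0.20 with Cish). Within groups of at least 6 libraries, which were looked at after the pooled value was seen, Socs2 and Socs3 had r = -0.88 in 16-week CD (rho = -0.89, exact permutation p = 0.0306 and 0.0333, adjusted over the 2 groups 0.0611 and 0.0667) and r = -0.73 in 16-week HFD (rho = -0.70, exact p = 0.0702 and 0.105). Without the 2 farthest libraries r was -0.91 and -0.52. In 16-week CD, replicates 1 and 2 had the lowest Socs2 and the highest Socs3, and r without both was not computed. In 16-week HFD, 3 of the 7 libraries had no Socs3 read.

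Ptpn1 (chr2:167932057-167979385, plus strand) encodes the phosphatase PTP1B. It had 21.5, 23.4 and 23.5 CPM in 16 C and 34.4, 36.2, 65.1, 69.6 and 75.6 CPM in 16 L. Every leptin library lay above every saline library, with a mean of 22.8 ± 1.11 CPM (SD, n = 3) in 16 C and 56.2 ± 19.5 CPM (SD, n = 5) in 16 L. The log2 fold change was 1.30 (SE 0.383, edgeR adjusted p = 0.0595), which missed the threshold. It was called by DESeq2 (1.29, adjusted p = 0.0187), with total counts alone (2.16), with all 34 libraries in 1 fit (adjusted p = 0.00532), and in 2 of the 8 fits that left out 1 library, those without 16 L replicate 18 (1.34, adjusted p = 0.0103) or 19 (1.45, adjusted p = 0.0317). In the diet groups it ranged from 33.2 to 55.4 CPM in 4-week CD, 27.0 to 42.6 in 4-week HFD, 13.5 to 39.4 in 16-week CD, 12.2 to 34.6 in 16-week HFD and 25.4 to 40.1 in the low weight gainers. The diet comparison with the value farthest from 0 was again the low weight gainers against 16-week HFD (log2 fold change 0.35, adjusted p = 0.370).

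After these values had been seen, all 10 genes were set against the top-50 share, with group means removed. Ptpn1 was lower in libraries with a higher share (r = -0.76, rho = -0.73, permutation p adjusted over the 10 genes 0.0005 and 0.0008), and r was -0.76 without the 2 farthest libraries and -0.75 without the 3 that stood apart. Stat5b had r = -0.73 and rho = -0.57 (adjusted p = 0.0029 and 0.0202), but r was -0.37 without those 3 libraries. Socs2 went the other way, with r = 0.64 (adjusted p = 0.0293) and rho = 0.44 (adjusted p = 0.0678), and r was 0.40 without the 3. The other 7 genes had adjusted p of at least 0.0614, the lowest being that of rho for Stat5a. Stat5a had rho = 0.46 and r = 0.41 (adjusted p of r = 0.262), and r was 0.44 without the 3. Socs3 had r = -0.38 (adjusted p = 0.113), or -0.16 without the 3, and Lepr had r = -0.22. Socs2 and Socs3 thus had values of opposite sign, and the part of the share in their own correlation was not tested. The share differed between 16 C and 16 L as well, and its part in the values of Ptpn1, Socs2 and Stat5a there was not tested.

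**Figure D5:**
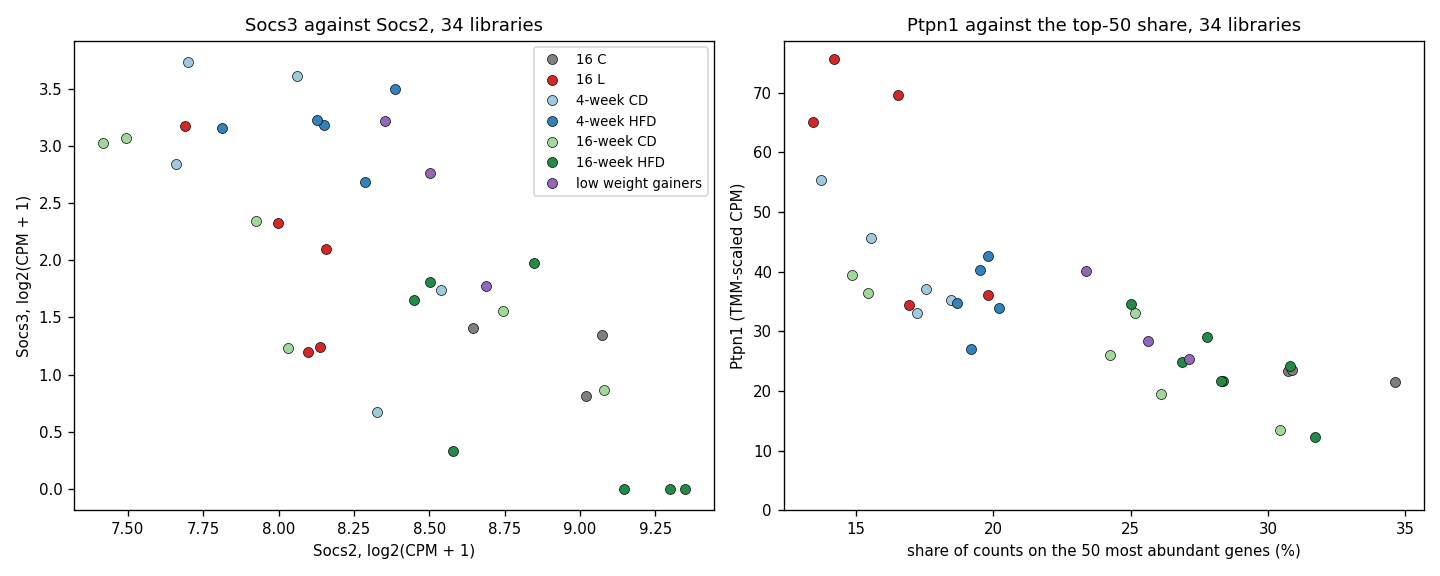
Left, Socs3 against Socs2, both as log2(CPM + 1). Right, Ptpn1 in CPM against the percent of counts on the 50 most abundant genes. Each point is 1 of the 34 libraries, coloured by group, and within groups the correlations were -0.70 and -0.76.

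Of 75 other genes of the route, 74 were in the table. They comprised ligands, receptors, kinases, STATs, inhibitors, adaptors and STAT target genes. In 16 L against 16 C, 2 of 59 tested were called (3.39%, against 8.56% of all genes), both lower. Myc, a growth regulator and STAT target, lay at 256 to 299 CPM in 16 C and 17.7 to 106 CPM in 16 L (log2 fold change -2.64, adjusted p = 0.0270), and Ifngr2, an interferon gamma receptor chain, at 215 to 298 and 40.7 to 125 CPM (-1.71, adjusted p = 0.0369). The median log2 fold change of the 59 was 0.54, beside 0.27 for all genes. In 4-week HFD, 3 of 59 were called (5.08%, against 4.26% of all genes). Socs5, another inhibitor of the family, fell by 1.35 on the log2 scale (24.1 to 54.4 CPM in CD and 10.9 to 19.6 in HFD). Csf2rb, the shared chain of the interleukin-3 and GM-CSF receptors, fell by 1.04 (28.3 to 62.7 CPM in CD and 19.4 to 30.8 in HFD). Leprot, a neighbour of Lepr whose product regulates how much receptor reaches the cell surface, rose by 0.95 (SE 0.249, adjusted p = 0.0425), from 37.7 to 93.5 CPM in CD to 88.5 to 142.6 CPM in HFD. The Lepr values of the same libraries, given above, did not pass.

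At 16 weeks 0 of 56 of these genes were called between HFD and CD, and 0 of 59 between the low weight gainers and CD. Between the low weight gainers and 16-week HFD, 15 of 58 (25.9%) were called, 9 higher and 6 lower, where 20.7% of all genes were called. By p-value the first was Prlr, the prolactin receptor, which fell by 1.59 on the log2 scale (SE 0.280, adjusted p = 0.00191), from 495 to 1191 CPM in HFD to 251 to 320.0 CPM in the low weight gainers. The next 4 were STAT targets. Bcl2l1, a survival factor, rose by 2.04 (6.94 to 30.2 CPM in HFD and 48.1 to 123 in the low weight gainers). Cebpb, a transcription factor of luteinization, rose by 1.88 (12.6 to 56.5 and 66.9 to 229 CPM). Pim3, a kinase, rose by 1.32 (12.1 to 21.4 and 22.1 to 65.5 CPM). Bcl6, a repressor, fell by 1.24 (77.5 to 177 and 37.2 to 63.8 CPM). In each of these 5 the groups did not overlap (20.5% of all genes). The 5 were picked by the smallest p in this same comparison, so their separation largely follows from that choice. For a diet effect that differed between 16 and 4 weeks, 2 of 60 (3.33%) were called, against 3.66% of all genes, among them Prlr (log2 difference 1.81, adjusted p = 0.0409). Among the ligand genes Lep itself was found in 1 library (1.31 CPM) and Prl in 0, while Clcf1, a cytokine of the interleukin-6 family, was found in all 34 (median 8.56 CPM).

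Over the 34 libraries, with group means removed, the 5 genes of 13236 whose levels followed Lepr most closely were Ubqln2 (Spearman's rho 0.724), Sypl (0.719), Zfp597 (0.719), Ror1 (0.718) and Ak4 (0.712). The other 9 genes of the group ranged from -0.452 for Stat3 to 0.264 for Ptpn1. These values describe likeness within these libraries, which differ in depth and composition.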

How the data were processed

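RNA of CCs was measured in 34 libraries, grouped and numbered by the sample labels. The authors deposited whole-number counts of reads per gene, without normalization. The submitters' processing notes name Trim Galore 0.4.2, HISAT2 2.0.5 and GRCm38; the counting program, its use of strand and the annotation are not given in the sources used here. Without molecular identifiers, PCR copies are counted as reads.

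Comparisons were fitted one by one, on the libraries of their groups, in R 4.3.3 with edgeR 4.0.16 (TMM, filterByExpr, robust quasi-likelihood F-test, two-sided), adjusted by Benjamini-Hochberg over all genes tested and called under 0.05. The standard error is the log2 fold change divided by the root of F. Genes that failed the filter were compared as log2(RPM + 1), RPM being scaled by total counts. Correlations used 100000 permutations within groups. Exon lengths are from GENCODE M21. The fits were tested on simulated data. Alternatives were DESeq2 1.42.0, RLE normalization, total counts alone, no filter, 1 fit of all 34 libraries, a pseudocount of 0.1 and each library left out. Leaving out 2 or 3 libraries together and TMM scaling of the filtered gene were added after the data were seen.

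The 10 genes and the pathway and marker lists were chosen with earlier results of these data known. Named are all 10 genes, at most 5 pathway genes per comparison with the smallest p among those called, and the 5 genes most like Lepr. Labels and the paper state different diet fat contents, and the labels' values are given. The paper describes the cells as collected per animal. No 2 columns within a group were identical over 72 pairs. One pathway gene is not reported here.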

Additional observations from a re-analysis of the deposited data

Results flagged for a closer look

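In groups of 4 to 10 libraries, a library was picked out when its gap to the nearest other, as a share of the group's range, passed Dixon's 95% critical value. Of 50 sets of values checked (10 genes in 5 groups), 2 were picked out, and chance picks out about 1 in 20. Jak2 in 16-week CD replicate 8 was 88.5 CPM where the next highest library had 53.6 CPM (gap share 0.786). Stat3 in 16 L replicate 18 was 295 CPM where the next highest had 123 CPM (gap share 0.787). The second is the library with the highest sums of oviduct, red blood cell and stromal genes, whose part in its Stat3 level was not tested.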

How the results depend on the processing

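Of 319 log2 fold changes of the 10 genes under other settings, 290 kept their direction and side of the threshold, as did 654 of 708 with 1 library left out. Causes were not tested. The call of Stat5a in 16 L and that of Socs3 in the low weight gainers rest on few libraries, as given in the report. No paired analysis was possible because the labels give mice of different groups the same number without saying that they share a litter, batch or day, and the groups of each comparison share fewer than 2 numbers. Socs3 has too few reads to fit in 16 L and in 16-week HFD against CD, and with a library fewer the exact permutation test of 16 L cannot pass 0.05.

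For 16 L against 16 C, 1004 genes were called, and 2629 with DESeq2, 4035 with total counts alone, 504 without the filter, 4384 with all 34 libraries in 1 fit, and 30 to 4635 with 1 library left out. Of these 476 were higher and 528 lower, against 3652 and 383 with total counts and 1595 and 1034 with DESeq2. For 4-week HFD 499 were called, and 1291 with DESeq2, 69 with all libraries and 8 to 1700 with 1 left out. For 16-week HFD 3 were called, and 1056 with DESeq2, 1646 with total counts, 13 without the filter, 1258 with all libraries, 1 without CD replicates 1 and 2 and 1 to 2222 with 1 left out. For the low weight gainers 2330 were called against HFD, and 487 with all libraries and 596 to 2732 with 1 left out. Against CD 1 was called, and 250 with DESeq2, 0 with total counts, 7 with all libraries, 3 without CD replicates 1 and 2 and 0 to 1 with 1 left out. For the difference of the diet effects 448 were called, and 1165 with DESeq2, 873 with total counts, 157 with all libraries, 89 without CD replicates 1 and 2 and 69 to 1685 with 1 left out. With total counts alone, the median over all genes shifted by 0.81 (log2) in 16 L, -0.12 for HFD at 4 weeks, -0.35 for HFD at 16 weeks, 0.17 and -0.20 for the low weight gainers against HFD and CD, and -0.31 for the difference of diet effects.

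Of the 10 genes, those called in 16 L numbered 3 with DESeq2 (22.4% of all genes), 3 with total counts (34.4%) and 4 with all libraries (33.1%). With 1 library left out they numbered 0 to 5, the 5 being without 16 L replicate 18, where 41.8% of all genes were called. In 16-week HFD they numbered 1 with total counts (15.2% of all genes) and 1 with all libraries (9.50%). With 1 left out they numbered 0 to 4, the 4 being without CD replicate 9 (20.5%). In the low weight gainers against HFD they numbered 0 with all libraries (3.68%). With 1 left out they numbered 0 to 2, the 2 being without HFD replicate 6 (24.5%).

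With total counts alone these log2 fold changes took the other sign. In 16 L they were Lepr 0.10, Jak1 0.30 and Stat3 0.45. In 4-week HFD it was Socs2 at -0.066, and in 16-week HFD Jak2 at -0.28. In the low weight gainers against CD they were Jak1 -0.15 and Ptpn1 -0.13, and in the difference of diet effects Jak2 -0.089, Stat3 -0.13 and Ptpn1 -0.29. Stat5a in 4-week HFD was 0.022 without the filter and 0.010 with all libraries. Without CD replicates 1 and 2, Ptpn1 was 0.12 in 16-week HFD. For the low weight gainers against CD the same setting gave Jak1 -0.023, Stat5a -0.17, Stat5b 0.061 and Socs2 -0.0084, and in the difference of diet effects Lepr 0.094 and Stat5b 0.049. The rho of Lepr with Cish was -0.060 without the 3 libraries.

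With 1 library left out, log2 fold changes that changed sign or call ran as follows. In 16 L Jak2 ran from 0.92 to 1.15, Ptpn1 from 1.18 to 1.45, Socs2 from -1.01 to -0.80, Stat3 from -0.83 to -0.071, Stat5a from -2.60 to -1.96 and the log2(RPM + 1) difference of Socs3 from 0.99 to 1.48, or 0.82 with TMM scaling. In 4-week HFD Socs2 ran from -0.064 to 0.15, Socs3 from -0.012 to 0.59 and Stat5a from -0.11 to 0.23. In 16-week HFD Cish ran from -1.38 to -0.86, Jak2 from -0.11 to 0.22, Socs2 from 0.59 to 0.94, Stat5a from 0.53 to 1.42, Stat5b from -1.10 to -0.64 and the log2(RPM + 1) difference of Socs3 from -1.60 to -1.05, or -0.66 without CD replicates 1 and 2. In the low weight gainers against HFD Cish ran from -0.010 to 0.44, Socs3 from 1.71 to 2.48 and Stat5a from -0.82 to -0.50, and against CD Jak1 from -0.046 to 0.13 and Stat5a from -0.076 to 0.88. In the difference of diet effects Lepr ran from -0.31 to 0.15 and Ptpn1 from -0.045 to 0.21.

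Of the 7 places in the order of group medians, total counts kept 3 for Lepr, 1 for Jak1, 3 for Jak2, 1 for Stat3, 3 for Stat5b, 1 for Socs2 and 5 for Cish. Leaving out the 3 libraries kept 5 for Lepr, 5 for Jak1, 5 for Stat5a, 4 for Socs2, 4 for Cish and 3 for Ptpn1. By the longest transcript the median CPM per kilobase was 50.0 for Jak1, 26.1 for Stat3 and 76.1 for Socs2.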
